A study of Mus musculus with 4 samples.

Results

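The genes described here are 8 genes tied to the mature dendritic cell programme: Ccl17, Ccl22, Ccr4, Fscn1, Relb, Il4i1, Cacnb3 and Apol7c. They were taken by symbol from the 27998 genes of the count tables, and each symbol matched 1 row. Their levels were read in every marker-gated class of dendritic and myeloid cells and, for reference, in lymphocytes. The cells came from melanomas grown under the skin of mice from 1000000 injected B16F10-OVA cells, a mouse melanoma line that carries the model antigen ovalbumin. The hosts were wild-type C57BL/6 mice or mice of the same labelled strain whose T cells carry a conditional knockout of the microRNA miR-155 (miR-155 TCKO, referred to as knockout). The driver of the deletion and the age of the mice are not given in the sources used here. Tumours of more than 4 mice per group were pooled at day 9 or day 12, and living cells with CD45, a protein of all leukocytes, were sorted for droplet 3' RNA sequencing. This gave 4 libraries, 1 for each genotype and day, so no group has a replicate, and pool, day and preparation cannot be told apart.

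Dendritic cells take up antigen and present it to T cells. When they mature they switch on the chemokine receptor Ccr7, which guides them to lymph nodes, and with it a set of genes for migration, for T cell contact and for NF-kB signalling. Ccl17 and Ccl22 are secreted chemokines whose receptor is Ccr4, carried mainly by regulatory and T helper type 2 cells. Fscn1 encodes fascin, which bundles actin in the long processes of mature dendritic cells, and Relb encodes a subunit of the non-canonical NF-kB pathway. Il4i1 encodes a secreted enzyme that oxidises phenylalanine and other amino acids, Cacnb3 a beta subunit of voltage-gated calcium channels, and Apol7c a member of the apolipoprotein L family.

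The 4 libraries held 1778, 3749, 3684 and 2059 cell barcodes, in the order wild-type and knockout at day 9, then wild-type and knockout at day 12, an order kept throughout. Their median depth was 9655, 7747, 7379 and 7770 unique molecular identifiers (UMIs) per barcode, and 10943 cells were kept. Mature dendritic cells (mature DC) were gated on at least 2 UMIs of Ccr7 and at least 3 of 10 other markers, none of them one of the 8 genes. The gate held 351 cells, 3.21% of those kept, with 30, 57, 108 and 156 cells in the 4 libraries. These were 1.71% (95% Clopper-Pearson interval 1.16 to 2.44), 1.57% (1.19 to 2.03), 3.03% (2.49 to 3.65) and 7.80% (6.66 to 9.06) of each library, and the intervals here and below cover counting error only. Of the 351 cells, 342 fell into 1 of 22 clusters that were formed without the 8 genes. That cluster held 395 cells, of which 24 were gated as conventional dendritic cells 2 (cDC2) and 23 as lymphocytes. In the gated cells Cd83 was at 1094, 792, 734 and 811 UMIs per 1000000 UMIs of the class (CPM). The MHC class II gene H2-Aa was at 9892, 8099, 7089 and 4902 CPM. Their levels in other classes are not given here, so these values do not set mature DC apart. The B cell gene Cd79a, the T cell gene Cd3e and the NK cell gene Ncr1 were between 0 and 3.70 CPM in the gated mature DC. Cells rich in these genes had been gated out before, so their low levels follow from the gates and are no check of the label. The sum of the macrophage genes C1qa, C1qb, C1qc and Apoe, used by no earlier gate, was 14.8, 44.3, 129 and 120 CPM. Over the libraries, 66 cell barcodes were shared by a pair of libraries, 62 of them among kept cells and 10 with the same gate.

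Of the 8 genes, 7 had their highest level in mature DC and Ccr4 did not. The positions are those of the mm10 build with GENCODE vM21: Ccl22 lies on the plus strand of chromosome 8 from 94745590 to 94751699 and Ccl17 on the same strand from 94810453 to 94812036, with 58753 bases between them. Fscn1 lies on chromosome 5 from 142960343 to 142973185 and Apol7c on the minus strand of chromosome 15 from 77524852 to 77533316. Cacnb3 is on the same chromosome, from 98630840 to 98644529. Relb and Il4i1 are both on chromosome 7, from 19606217 to 19629438 and from 44816387 to 44840809, and Ccr4 is on chromosome 9 from 114490316 to 114504916.

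The promoters of 4 genes are shown because 2 neighbouring chemokine genes, Ccl17 and Ccl22, differed in their spread over cells, and because Apol7c and Fscn1 had the highest shares of their UMIs in mature DC. They are from RefSeq on GRCm38.p6, each running 5′ to 3′ on the gene's strand from 250 bases before the start to 50 after it. The windows are chr8:94810203-94810502 for Ccl17, chr8:94745434-94745733 for Ccl22, chr5:142960105-142960404 for Fscn1 and chr15:77533266-77533565 on the minus strand for Apol7c. Capitals mark letters that match 1 of the motifs named after the sequences.
Ccl17: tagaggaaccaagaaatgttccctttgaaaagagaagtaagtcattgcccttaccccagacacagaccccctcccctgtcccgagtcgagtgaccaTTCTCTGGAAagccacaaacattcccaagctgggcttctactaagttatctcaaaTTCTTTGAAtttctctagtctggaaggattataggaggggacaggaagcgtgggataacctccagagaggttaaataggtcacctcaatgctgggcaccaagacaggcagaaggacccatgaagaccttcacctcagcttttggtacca
Ccl22: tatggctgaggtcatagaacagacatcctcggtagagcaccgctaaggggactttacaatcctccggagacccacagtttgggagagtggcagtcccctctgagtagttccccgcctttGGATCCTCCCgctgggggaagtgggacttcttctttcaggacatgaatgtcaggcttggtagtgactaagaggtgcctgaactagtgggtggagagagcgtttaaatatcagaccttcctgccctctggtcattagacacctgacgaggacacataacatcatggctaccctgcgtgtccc
Fscn1: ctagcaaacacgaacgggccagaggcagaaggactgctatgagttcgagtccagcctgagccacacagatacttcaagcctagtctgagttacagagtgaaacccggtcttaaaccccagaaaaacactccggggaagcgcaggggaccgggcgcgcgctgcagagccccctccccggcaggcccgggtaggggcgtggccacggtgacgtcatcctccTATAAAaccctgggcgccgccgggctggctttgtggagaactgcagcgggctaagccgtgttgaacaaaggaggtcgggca
Apol7c: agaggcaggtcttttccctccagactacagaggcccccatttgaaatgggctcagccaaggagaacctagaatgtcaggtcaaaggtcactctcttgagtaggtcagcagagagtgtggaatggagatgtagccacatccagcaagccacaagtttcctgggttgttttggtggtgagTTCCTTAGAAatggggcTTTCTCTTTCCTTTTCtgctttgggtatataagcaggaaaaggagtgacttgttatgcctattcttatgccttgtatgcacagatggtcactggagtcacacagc

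The promoter table held 8 promoters for 7 of the 8 genes, a pair of them for Cacnb3. All 32851 promoters of the table were searched on both strands for 12 motifs, which were chosen with these sequences in view. Of the NF-kB type motifs, GGGNNNTTCC was in 5.56% of all promoters, GGGNNTTTCC in 1.63%, GGGANTTTCC in 0.411% and GGGNNTTCC in 5.82%, and none of these was in a promoter of the 7 genes. The widest, GGGNNNNTCC, which contains several of the narrower ones, was in 19.2% of all promoters and in 2 of the 8, at -131 in Ccl22 and at -33 in the second Cacnb3 promoter. The interferon-stimulated element GAAANNGAAA (3.44% of all promoters) matched the Apol7c promoter at 2 overlapping places, -55 and -49, on the minus strand. TTCNNNNGAA, a STAT6 type motif (6.95%), was at -154 in Ccl17 and at -72 in Apol7c, and TTCNNNGAA (8.30%) was at -99 in Ccl17. TATAAA (13.6%) was at -31 in Fscn1, and TGANTCA, an AP-1 type motif (7.81%), was at -143 in Ccr4. CACGTG (7.15%) and TTCCNNGAA (4.81%) were in none of the 8. No motif was in more than 2 of the 8 promoters, and a match is a match of letters and not a site.

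Ccl22 and Ccl17 were the chemokine ligands of the set. Ccl22 was at 728, 1685, 1871 and 2880 CPM in mature DC. The wild-type library of day 9 was the lowest and the knockout library of day 12 the highest. In cDC2 it was at 112, 83.6, 20.6 and 103 CPM, where 1 cell of the wild-type library of day 9 held 106 of 114 UMIs, and in the cDC1, gated on Xcr1 and Clec9a, at 15.1, 10.1, 3.28 and 24.6 CPM. Monocytes, macrophages and plasmacytoid dendritic cells (pDC) lay between 0 and 7.67 CPM, so mature DC exceeded each of these classes in every library. Of all 8238 Ccl22 UMIs in kept cells, 81.3% were in mature DC.

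Ccl17 was shared between mature DC and cDC2. It was at 48.0, 1964, 821 and 1579 CPM in mature DC. The wild-type library of day 9 stood far below the other 3. In cDC2 Ccl17 was at 5.88, 459, 286 and 535 CPM, low in the same library. The cDC1 were at 27.4, 117, 22.4 and 2.63 CPM, monocytes at 0.715, 7.94, 20.6 and 36.7 CPM, and macrophages and pDC between 0 and 10.2 CPM. The ranges of mature DC and cDC2 overlapped over the libraries, yet within each library mature DC were the higher class. In the wild-type library of day 9 that order rests on 1 mature DC with all 13 UMIs. Without the top cell of each class Ccl17 was there at 0 CPM in mature DC, 1.97 in cDC2 and 6.79 in cDC1. Mature DC held 48.3% of the 8221 Ccl17 UMIs and cDC2 30.6%. In the wild-type library of day 12 cDC2 held 42.9% of them and mature DC 40.1%.

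Ccr4, the receptor of these chemokines, went against the label of the set. Not 1 UMI of it was found among the 3047217 UMIs of the 351 mature DC. A count of 0 allows a level of up to 0.985 CPM and a share of cells with a UMI of up to 0.855%. There was also none in cDC1, cDC2, pDC, monocytes, macrophages and NK cells, where the limits were 0.623, 0.415, 1.21, 0.120, 0.141 and 0.347 CPM. Of the 46 Ccr4 UMIs, 17 were in regulatory T cells, 21 in other T cells, 6 in CD8 T cells and 2 in unassigned cells. Regulatory T cells, gated on Foxp3, were at 6.35, 4.52, 11.2 and 10.2 CPM, with a UMI in 14 of 190 cells (7.37%). Other T cells were at 5.44, 0, 7.73 and 2.45 CPM and CD8 T cells at 0.429, 0, 0.584 and 0 CPM. With so few UMIs the libraries cannot be ranked for Ccr4, and the gene is left out of the counts per cell that follow.

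Fscn1 was at 2712, 3306, 1808 and 2299 CPM in mature DC. It was higher in the libraries of day 9 than in those of day 12. Among cDC1, pDC, monocytes and macrophages it lay between 0.384 and 16.1 CPM. In cDC2 it was at 113, 17.5, 12.8 and 113 CPM, high in wild-type at day 9 and in knockout at day 12. Mature DC held 85.2% of its 8510 UMIs.

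Relb was at 890.5, 699.7, 668 and 652 CPM in mature DC, a narrow range. It was the gene of the 8 found most broadly. Relb lay between 30.4 and 41.2 CPM in cDC1, between 46.3 and 81.9 CPM in cDC2, between 33.6 and 38.6 CPM in macrophages and between 45.1 and 70.4 CPM in NK cells. The ranges of cDC1 and macrophages overlap, as do those of cDC2 and NK cells, so neither pair has an order for Relb. Mature DC held 31.9% of its UMIs, monocytes 16.0%, macrophages 11.5% and CD8 T cells 10.3%.

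Il4i1, the amino acid oxidase, was at 757.5, 796, 515 and 656 CPM in mature DC. The cDC2 followed at 41.2, 64.3, 50.9 and 78.5 CPM and NK cells at 7.52 to 46.5 CPM. Of the NK-gated cells 9 fell into the mature DC cluster, and their part in the NK level was not tested. Macrophages and monocytes were between 0 and 5.27 CPM and cDC1 between 0 and 19.8 CPM. Mature DC held 59.9% of the Il4i1 UMIs.

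Cacnb3, the calcium channel subunit, was at 769, 685, 641 and 666 CPM in mature DC. In cDC2 it was at 32.4, 7.35, 10.9 and 31.0 CPM, the same high and low libraries as for Fscn1. The cDC1 were between 2.54 and 10.9 CPM and monocytes and macrophages between 0 and 1.65 CPM. Mature DC held 79.2% of its UMIs.

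Apol7c was at 51.7, 216, 58.4 and 116 CPM in mature DC. Both knockout libraries were above both wild-type libraries. No Apol7c UMI was found in cDC1, cDC2, pDC, monocytes or NK cells, and macrophages had 10 UMIs, all in the wild-type library of day 12. Of the Apol7c UMIs, 90.5% (Clopper-Pearson interval 87.1 to 93.2) were in mature DC, the highest share of the 8 genes.

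**Figure D1:**
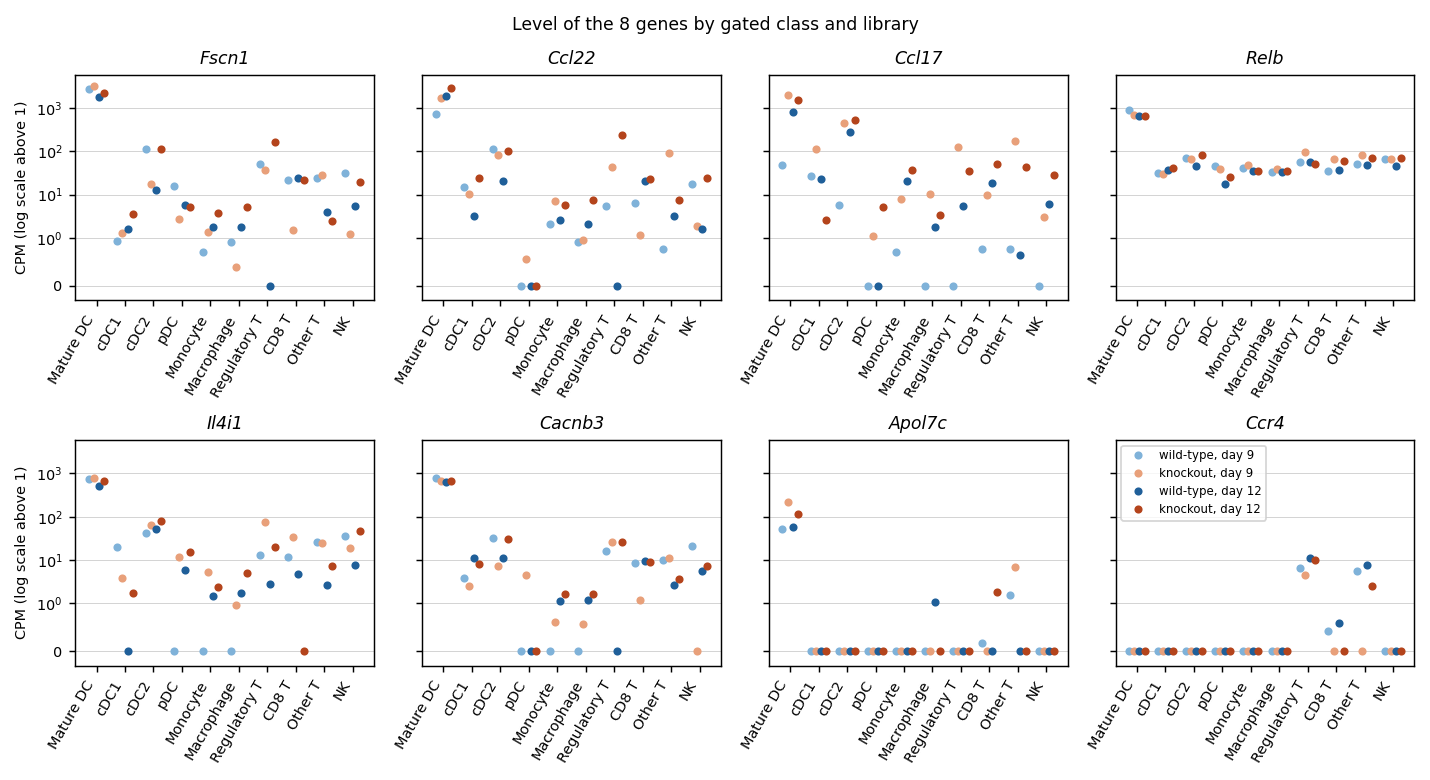
CPM of each of the 8 genes (vertical axis, linear below 1 and logarithmic above) by gated class (horizontal axis), 1 point per library and class of at least 20 cells. Of the genes, 7 peak in mature DC, Ccl17 reaches 286 to 535 CPM in cDC2 in 3 libraries, Relb is above 17 CPM in every class and Ccr4 is at 0 in all classes but T cells.

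Since the genes were named for this pattern, their levels over classes are a description and carry no test. As a background, 330 of 9281 genes, or 3.56%, were at least 4-fold higher in mature DC than in cDC1 in all 4 libraries, and 6 of the 7 genes tested passed the same rule, with 0.5 UMIs added to each sum. Against cDC2 the background was 2.75% and again 6 of 7 passed. The exception was Ccl17 in both, with a smallest log2 difference of 0.84 against cDC1 and 1.52 against cDC2, while Fscn1 had a smallest log2 difference of 9.18 against cDC1. Against pDC, monocytes and macrophages 7 of 7 passed, beside backgrounds of 3.82%, 4.13% and 4.14%. For Ccl17 the mature DC value of the wild-type library of day 9 in these comparisons rests on 13 UMIs in 1 cell. At the edge of the gate, the 15 cells with exactly 3 other markers had 387 CPM of Fscn1, 734 of Ccl22 and 202 of Cacnb3. The 6 cells just outside, with 2 other markers, had 22.8 CPM of Fscn1, 434 of Ccl22 and 114 of Cacnb3.

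Within the class, each gene was read cell by cell after every cell had been thinned to 3000 UMIs. Fscn1 had a UMI in 93.3%, 87.7%, 86.0% and 90.9% of mature DC, Cacnb3 in 80.0%, 86.0%, 79.4% and 79.9%, and Relb in 80.0%, 86.0%, 76.6% and 81.8%. These 3 genes were seen in most cells of each library. Ccl22 had a UMI in 56.7%, 66.7%, 75.7% and 85.1% of cells, and Il4i1 in 66.7%, 68.4%, 65.4% and 65.6%. Ccl17 had a UMI in 3.33%, 26.3%, 36.4% and 40.3% of cells and Apol7c in 3.33%, 14.0%, 9.35% and 7.14%. The last 2 genes were thus seen in a minority of mature DC. NK cells of the same libraries, thinned alike, had a UMI of any of the 7 genes but Relb in at most 4.13% of cells, and of Relb in 12.3% to 19.3%. In the wild-type library of day 9, where 3.33% is 1 of 30 mature DC, 0 of 218 NK cells had a UMI of Ccl17 or of Apol7c.

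Most mature DC carried several of the genes at once. Of the 7 genes without Ccr4, the median mature DC had a UMI of 4, 4, 4 and 5. At least 3 genes were seen in 90.0%, 94.7%, 92.5% and 94.8% of mature DC, and at least 5 in 26.7%, 47.4%, 48.6% and 53.2%. In cDC2 the median was 0 in each library, and at least 3 genes were seen in 4.44%, 2.17%, 2.47% and 4.79% of cells. No thinned cDC1 had 3 of the genes, and among monocytes the share was 0%, 0.0689%, 0% and 0%. These shares depend on depth. Without thinning at least 5 genes were seen in 70.0%, 64.9%, 76.9% and 80.1% of mature DC, and at 2000 UMIs in 23.3%, 33.3%, 38.0% and 31.4%. Without thinning at least 3 genes were seen in 4.44%, 13.0%, 4.00% and 13.5% of cDC2 and in 1.35%, 2.00%, 0.671% and 3.70% of cDC1. Mature DC stayed far above both classes at each depth.

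**Figure D2:**
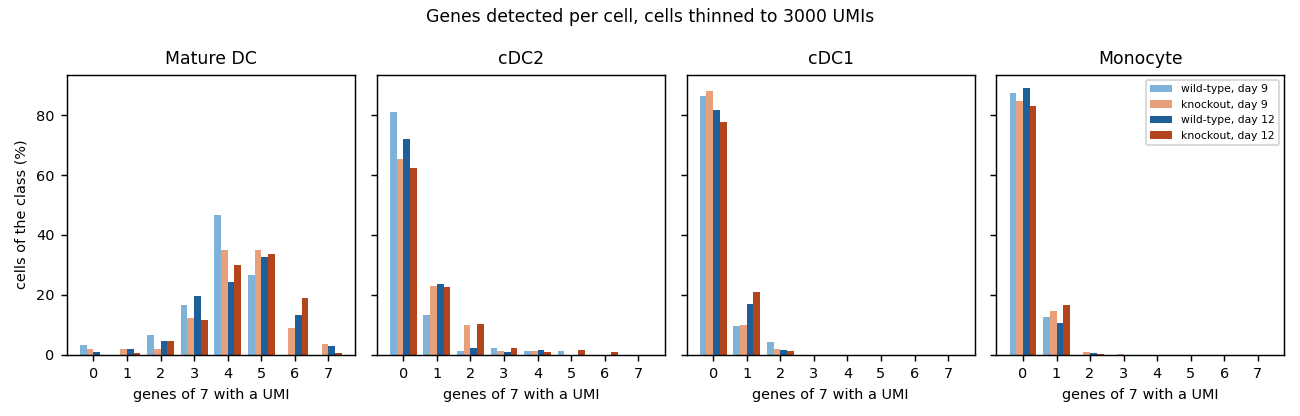
Percent of cells (vertical axis) by the number of the 7 genes with a UMI (horizontal axis) in mature DC, cDC2, cDC1 and monocytes, after thinning to 3000 UMIs, 1 bar colour per library. Mature DC centre on 4 to 5 genes, and in the other 3 classes the tallest bar is at 0.

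The chemokine Ccl17 was held by few cells. In the wild-type library of day 9 all 13 UMIs of Ccl17 lay in 1 of 30 mature DC. In the knockout library of day 9, 1064 UMIs lay in 21 of 57 cells, and 1 cell alone held 805 of them (75.7%). Without that cell the level was 499.8 CPM in place of 1964. At day 12 a UMI was found in 54 of 108 wild-type and 80 of 156 knockout cells before thinning, and the top cell held 26.9% and 28.9%. Without the top cell those levels were 605 and 1137 CPM in place of 821 and 1579. Knockout stayed above wild-type at each day without the top cells, while in knockout hosts day 12 moved from below to above day 9.

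The other genes were spread more evenly, with Apol7c as the exception. The 10% of mature DC with the most UMIs of a gene held 100%, 94.4%, 72.0% and 79.9% of the Ccl17 UMIs, and 38.1%, 57.7%, 45.3% and 42.9% of those of Ccl22. For Cacnb3 they held 26.0%, 24.5%, 24.7% and 25.6%, for Relb 21.6%, 25.1%, 28.9% and 26.9%, and for Fscn1 29.0%, 28.7%, 30.3% and 32.9%. Cacnb3, Relb and Fscn1 were the evenly spread genes. Il4i1 lay between, with 30.2%, 41.5%, 33.6% and 45.4%. For Apol7c they held 100%, 95.7%, 89.8% and 100%, and it had a UMI in 3, 9, 16 and 15 cells. The 10% were 3, 6, 11 and 16 cells, so both of its values of 100% were fixed by how few cells had a UMI. The same holds for the 100% of Ccl17, which had a UMI in 1 cell of that library.

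**Figure D3:**
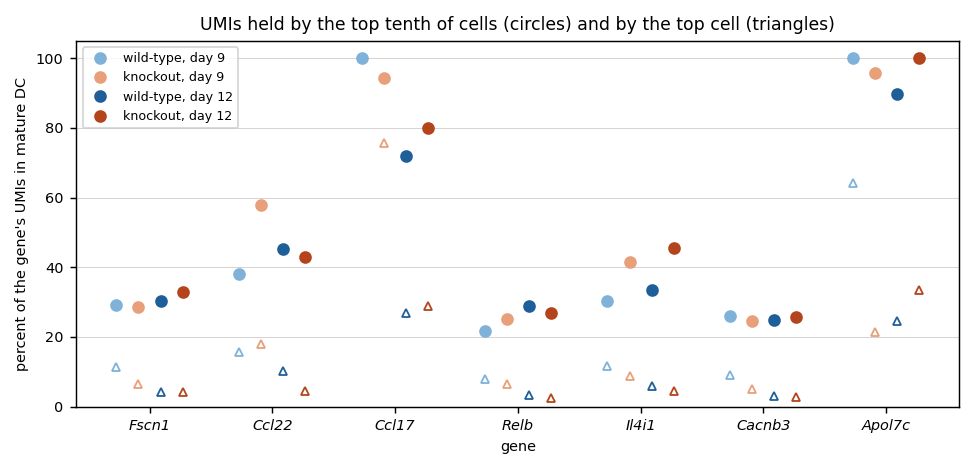
Percent of a gene's UMIs in mature DC (vertical axis) held by the 10% of cells with the most of it (circles) and by the top cell (triangles), for 7 genes and 4 libraries. Ccl17 and Apol7c lie at 72.0% or more for the circles, and Cacnb3, Relb and Fscn1 at 32.9% or less. The triangle of Ccl17 in the wild-type library of day 9 lies under its circle at 100%.

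Pairs of genes were also compared over the cells of mature DC. In thinned cells of a library the correlation of Ccl17 with Ccl22 was -0.165, 0.612, 0.535 and 0.523 (Pearson's r across cells of 1 library, a description), where the first value rests on 1 cell with Ccl17. Ccl17 with Cacnb3 gave -0.297, -0.143, -0.242 and -0.238, and Fscn1 with Cacnb3 gave 0.258, 0.166, 0.256 and 0.268. Fscn1 with Relb gave 0.0826, 0.335, 0.190 and 0.205. So the chemokine pair went together in 3 libraries. The r of Ccl17 with Cacnb3 was weakly negative in all 4, and its first value also rests on 1 cell with Ccl17. In sparse counts such weak values are no finding.

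A split of the mature DC by summed markers of cDC1 and cDC2 origin, which used none of the 8 genes, gave 24, 39, 86 and 103 cDC1-type cells and 4, 10, 10 and 24 cDC2-type cells. The cDC2-type cells number under 20 in 3 libraries, so values are given with no comparison beyond their order. Fscn1 was at 3017, 3621, 1913 and 2583 CPM in cDC1-type and at 1037, 2160, 1078 and 1262 CPM in cDC2-type cells. Cacnb3 was at 855, 783, 662 and 669 CPM in cDC1-type and at 191, 238, 403 and 474 CPM in cDC2-type cells. Both were higher in cDC1-type cells in each of the 4 libraries. Ccl17 was at 0, 615, 903 and 1069 CPM in cDC1-type and at 355, 7369, 766 and 4376 CPM in cDC2-type cells, higher in the latter in 3 libraries. That order rests on few cells: the 13 UMIs at day 9 in wild-type lay in 1 cDC2-type cell, as did 805 at day 9 in knockout. Without the top cell of each library Ccl17 was at 0, 615, 639.9 and 1069 CPM in cDC1-type and at 0, 345, 766 and 1962 CPM in cDC2-type cells, so the order turned in the knockout library of day 9 and in the wild-type library of day 12. In the latter it also turned when cells whose sums differed by less than 2 UMIs were left out. Apol7c and Relb were higher in cDC1-type cells in 3 libraries, Ccl22 and Il4i1 in 2. Single cells matter here too. Without the top cell the knockout library of day 9 had Ccl22 at 1757 CPM in cDC1-type and 623 in cDC2-type cells. Relb was there at 666 and 505 CPM, so the order of both genes turned to cDC1-type in that library.

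The next question is how the levels in mature DC differed between hosts and days. Ccl17, Ccl22 and Apol7c were higher in the knockout library than in the wild-type library at both days, while Cacnb3 was nearly level and Relb lower in the knockout library at day 9. The 2 libraries of a day were set against each other as a ratio of CPM with an exact conditional interval for counting error, which allows no test of the genotype. For Ccl17 the ratio of knockout over wild-type was 40.9 (23.8 to 77.1) at day 9 and 1.92 (1.76 to 2.10) at day 12. The first ratio rests on 13 wild-type UMIs in 1 cell. For Ccl22 it was 2.32 (1.98 to 2.72) and 1.54 (1.45 to 1.63). For Apol7c it was 4.18 (2.39 to 7.87) and 1.99 (1.44 to 2.80). These 3 genes had intervals above 1 at both days, and Apol7c had a UMI in 3 to 16 cells per library. Without the top cell of each library Ccl17 had 0 UMIs in wild-type and 259 in knockout mature DC at day 9, and the Apol7c ratios were 8.89 (3.68 to 28.0) and 1.76 (1.20 to 2.63).

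The other 4 genes moved less. For Fscn1 the ratio was 1.22 (1.12 to 1.33) at day 9 and 1.27 (1.20 to 1.35) at day 12. For Il4i1 it was 1.05 (0.887 to 1.25) and 1.28 (1.14 to 1.43). For Relb it was 0.786 (0.667 to 0.927) and 0.975 (0.877 to 1.09), and for Cacnb3 0.891 (0.750 to 1.06) and 1.04 (0.933 to 1.16). Fscn1 was thus slightly higher in the knockout library at both days, while the intervals of Cacnb3 held 1 at both. Transcripts that mark other cells moved with the libraries: the sum of 4 macrophage genes (C1qa, C1qb, C1qc and Apoe) in mature DC was 14.8, 44.3, 129 and 120 CPM. The sum of 3 T cell genes was 25.9, 5.54, 7.15 and 5.73 CPM, and that of 5 melanoma genes 11.1, 7.38, 16.7 and 40.1 CPM. The macrophage list had a UMI of 3, 4, 4 and 4 of its 4 genes, the T cell list of 3, 3, 2 and 2 of 3 and the melanoma list of 3, 2, 4 and 4 of 5. Their part in the ratios was not tested.

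**Figure D4:**
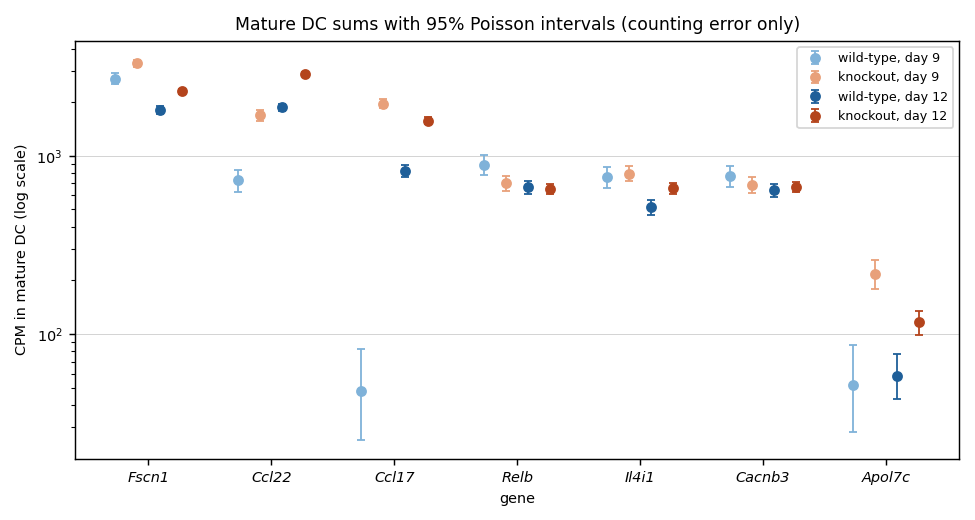
CPM in mature DC (vertical axis, logarithmic) for 7 genes (horizontal axis), 1 point per library with 95% Poisson intervals for counting error. Ccl17 spans 48.0 to 1964 CPM over the libraries and Relb and Cacnb3 stay between 641 and 890.5 CPM.

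From day 9 to day 12 the chemokine Ccl22 was higher and fascin lower in both genotypes. Ccl22 was 2.57-fold higher at day 12 in wild-type and 1.71-fold in knockout hosts. The ratio of day 12 over day 9 for Fscn1 was 0.667 and 0.695, for Relb 0.751 and 0.932, for Il4i1 0.680 and 0.825 and for Cacnb3 0.834 and 0.972. For Ccl17 it was 17.1 in wild-type and 0.804 (0.747 to 0.865) in knockout hosts, where 1 cell of day 9 held 805 of the 1064 UMIs. Without the top cell of each library the Ccl17 ratio in knockout hosts was 2.28 (1.99 to 2.60), so its direction there rests on that cell. For Apol7c it was 1.13 (0.613 to 2.21) in wild-type hosts, an interval that holds 1, and 0.537 (0.421 to 0.688) in knockout hosts.

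The only test was a model of the 4 sums of a class with a term for day and a term for genotype, which leaves 1 residual degree of freedom. With edgeR's quasi-likelihood F test and p-values adjusted by Benjamini-Hochberg, 0 of 7 genes passed an adjusted p of 0.05 for genotype in mature DC, beside 2 of 4858 genes, a background of 0.0412%. An unadjusted p under 0.05 was reached by 244 genes, 3 of the 7 among them, and DESeq2 called 2 genes in all. Ccl17 had a log2 fold change of 2.58 (SE 0.82, adjusted p = 0.850 by edgeR), Ccl22 of 0.92 (SE 0.23, adjusted p = 0.785 by edgeR) and Apol7c of 1.42 (SE 0.30, adjusted p = 0.669 by edgeR). All 3 were higher in knockout in 2 of 2 days. The median over the 7 genes was 0.34 and that over all genes 0.01, both as log2 fold changes.

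For day, 0 of 7 genes passed in mature DC, and so did 0 of the 4858 genes, a background of 0.0%, with 410 genes at an unadjusted p under 0.05 and 2 genes called by DESeq2. Ccl22 had a log2 fold change of 1.13 from day 9 to day 12 (SE 0.23, adjusted p = 0.240 by edgeR). Fscn1 had -0.48 (SE 0.20, adjusted p = 0.569 by edgeR), and neither passed. The median over the 7 genes was -0.18, and over all genes 0.02.

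Outside mature DC, Ccl17 was found mostly in cDC2, with the same low library as in mature DC. The Ccl17 ratio of knockout over wild-type in cDC2 was 78.0 (35.7 to 213) at day 9, where the wild-type value rests on 6 UMIs, 4 of them in 1 cell, and 1.87 (1.69 to 2.07) at day 12. Of cDC2-gated cells, 5, 3, 6 and 10 fell into the mature DC cluster, and they held 0, 0, 5 and 82 Ccl17 UMIs against 6, 999, 732 and 695 in the other cDC2. The Ccl17 level of those other cDC2 was 6.14, 464, 289.9 and 501 CPM, close to that of the whole class. For Fscn1 the same few cells held 113, 32, 29 and 159 UMIs against 2, 6, 4 and 5 in the other cDC2. So most of the Fscn1 counted in cDC2 lay in cells of the mature DC cluster and most of the Ccl17 did not. Ccl22 was mixed, with 112, 6, 27 and 129 UMIs in those cells and 2, 176, 26 and 20 in the others. Outside that cluster the Ccl22 ratio of knockout over wild-type was 39.9 (10.9 to 332) at day 9, in place of 0.748 in the whole class, and 1.40 (0.741 to 2.61) at day 12. For Cacnb3 those cells held 33, 7, 19 and 40 of 33, 16, 28 and 45 UMIs.

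The test in cDC2 called 0 of 6 genes for genotype, beside 31 of 8041 genes (0.386%), with 614 genes and 2 of the 6 at an unadjusted p under 0.05 by edgeR. It called 0 of 6 for day, beside 81 genes (1.01%), with 920 genes at an unadjusted p under 0.05. Ccl17 had a log2 fold change of 2.54 for genotype (SE 0.68, adjusted p = 0.204 by edgeR) and of 1.89 for day (SE 0.68, adjusted p = 0.297 by edgeR). Neither passed.

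**Figure D5:**
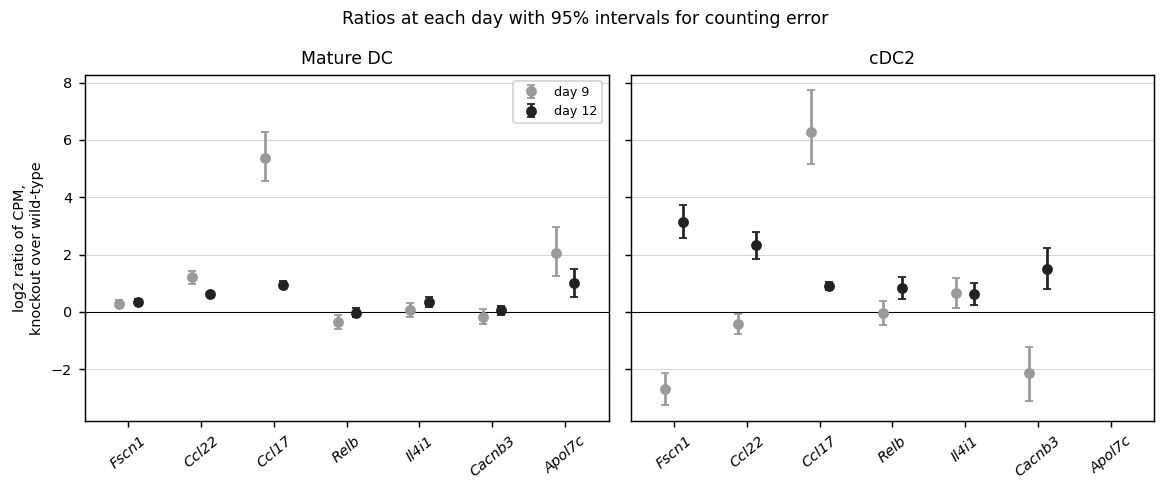
Log2 ratio of CPM, knockout over wild-type (vertical axis), at day 9 (grey) and day 12 (black) for 7 genes in mature DC and in cDC2, with 95% intervals for counting error. In mature DC Ccl17, Ccl22, Fscn1 and Apol7c lie above 0 at both days, and in cDC2 Fscn1, Ccl22 and Cacnb3 lie below 0 at day 9 and above it at day 12. The Ccl22 point of day 9 rests on 1 wild-type cell with 106 of 114 UMIs, and most Fscn1 and Cacnb3 UMIs lay in cells of the mature DC cluster, except Cacnb3 in the knockout library of day 9. Apol7c, with no UMI in cDC2, is not drawn there.

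In monocytes Ccl17 was the gene of the 8 that passed the test for day. At 0.715, 7.94, 20.6 and 36.7 CPM, it was higher at day 12 than at day 9 in both genotypes. The log2 fold change was 2.52 (SE 0.31, adjusted p = 0.00222 by edgeR), 1 of 4 genes tested, beside 584 of 9568 genes, a background of 6.1%. Without genotype in the model the adjusted p was 0.114. The call rests on few cells, with a Ccl17 UMI in 1 of 159, 22 of 1451, 11 of 789 and 28 of 501 monocytes. The top cell held 1 of 1, 51 of 104, 46 of 127 and 61 of 156 UMIs. Without the top cell of each library the levels were 0, 4.05, 13.1 and 22.4 CPM, and the day test was not repeated on these. For genotype 0 of 4 passed, beside 74 genes or 0.773%, with 909 genes and 2 of the 4 at an unadjusted p under 0.05 by edgeR. Ccl17 had 2.74, 29.5, 64.6 and 69.1 CPM in monocytes with 2 or more of the cDC2 markers and 0, 2.22, 6.22 and 20.7 CPM in those with fewer. In the latter cells the log2 fold change for day was 3.36 (adjusted p = 0.000891 by edgeR). The wild-type library of day 9 had 0 UMIs of Ccl17 there, so the size of the change depends on the count added by the fit.

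Cells gated as lymphocytes also held UMIs of the set. The 4228 T, NK, B and ILC2-like cells had 859 UMIs of Ccl17, of which 46.6% lay in 23 cells of the mature DC cluster. The same 23 cells held 68.9% of the Ccl22, 54.4% of the Fscn1, 88.5% of the Apol7c and 9.09% of the Relb UMIs of lymphocyte-gated cells. They also held 48.0% of the Cacnb3 and 30.1% of the Il4i1 UMIs. So for Ccl17, Ccl22, Fscn1, Cacnb3 and Apol7c a few cells with the markers of both kinds carried much of the count. For Il4i1 they carried a smaller part, and for Relb little.

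The genes nearest to the set were looked for over 41 class sums of at least 20 cells, by Pearson's r of log2(CPM + 1) with the mean of the 8 genes, among 8322 genes that reached 20 CPM in a sum. The sums share libraries, so r is a description. The 10 nearest were Gm13546 (r = 0.926), Cdkn2b (0.911), Tmem150c (0.910), Nudt17 (0.902), Mreg (0.898), Nr4a3 (0.897), Adcy6 (0.894), Rel (0.894), Ktn1 (0.889) and Slco5a1 (0.887). Nudt17 and Slco5a1 are markers of the gate itself. Gm13546 was at 310.4 to 659 CPM in mature DC and at most 36.5 CPM in any other sum. Of the 8 genes themselves, r with that mean was 0.95 for Cacnb3, 0.944 for Ccl22, 0.922 for Fscn1, 0.914 for Relb, 0.874 for Il4i1, 0.844 for Apol7c and 0.770 for Ccl17. Each of these genes is part of that mean, and the set was named for mature DC, so a high r was built in. Their values are not to be set against those of the 10 genes. Ccr4 did not reach 20 CPM, and its r with the other 7 genes lay between -0.160 and -0.003. Of the pairs, Fscn1 and Cacnb3 gave 0.911, Ccl22 and Cacnb3 0.898, Ccl17 and Ccl22 0.759, and Ccl17 and Fscn1 0.535.

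The pathways of the 8 genes were read from 8 lists of related genes. In mature DC the costimulation list had 12 of 12 genes tested, the NF-kB list 15 of 15, the actin list 12 of 12, the list of secreted factors 10 of 13, the list of T cell homing receptors and ligands 5 of 16, the calcium channel list 2 of 22 and the amino acid oxidation list 2 of 13. By edgeR's adjusted p, 0 genes of these lists rose or fell with genotype or day there. Median log2 fold changes for genotype were 0.09 for costimulation, -0.07 for NF-kB, -0.04 for actin and -0.05 for secreted factors, beside 0.01 over all genes. For day they were -0.12, -0.11, 0.12 and 0.28, beside 0.02 over all genes. None of the 11 other apolipoprotein L genes was high enough to be tested, and Apol10b, the highest of them, was at 0, 5.54, 9.53 and 7.17 CPM.

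Some partners of the set stood out by level in mature DC. Of the 22 other calcium channel genes, Cacna1s, a pore-forming alpha subunit, was at 155, 118, 206 and 153 CPM, and no other reached 20 CPM. Of the partners of Relb, Nfkb2 was at 269.7, 334, 182 and 181 CPM, Map3k14, the kinase that feeds the non-canonical pathway, at 229, 212, 234 and 231 CPM, and Traf1 at 1304, 959.9, 1101 and 1126 CPM. Map3k14 and Traf1 kept narrow ranges, as Relb did. Of the amino acid oxidation list, Ido1, a tryptophan oxidising enzyme, had 0, 0, 0 and 0.717 CPM. These genes were picked by level after the values were seen.

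In cDC2 a few list genes passed edgeR's test. With genotype Ccl24 rose by a log2 fold change of 4.84 (adjusted p = 0.00111), from 0 and 1.55 CPM in wild-type to 36.3 and 31.0 CPM in knockout libraries at days 9 and 12. Il1b rose by 2.16 (adjusted p = 0.0171), Cxcl10 by 1.28 (adjusted p = 0.0206) and Arg1 by 2.63 (adjusted p = 0.0382). Of the NF-kB list 0 of 15 and of the costimulation list 0 of 11 genes passed for genotype. The 4 genes were 1 of 10 genes tested in the homing list, 2 of 10 secreted factors and 1 of 6 amino acid genes, by edgeR. With day Ccl8 (6.09) and Arg1 (5.30) rose, and Cxcl10 (-1.22), Cxcl9 (-1.49) and Nfkb2 (-1.0) fell on the log2 scale, with adjusted p from 0.00140 to 0.0417 by edgeR. The same list genes were tested for day as for genotype. Over all 8041 genes edgeR called 31 (0.386%) for genotype and 81 (1.01%) for day. DESeq2 called 10 and 16 genes in all, and edgeR with only 1 term in the model 3 and 3. The list genes were not followed under these settings. The Arg1 values were 0, 0.919, 5.83 and 35.8 CPM, and the fold change of Ccl24, Ccl8 and Arg1, each at 0 in a library, depends on the count added by the fit. The summed macrophage genes C1qa, C1qb, C1qc and Apoe were at 34.3, 165, 182 and 205 CPM in cDC2. Their part in these calls was not tested.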

How the data were processed

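The authors deposited tables of raw UMI counts by gene and barcode. Cell Ranger 2.0.2 and the mm10 build are named in the submitters' processing notes. Barcodes were kept with at least 200 genes, at most 10% mitochondrial and at most 5% haemoglobin UMIs. Scrublet's own threshold called 3, 5, 1 and 15 doublets, too few, so the 25, 112, 108 and 34 highest scores were removed, at 0.8% per 1000 barcodes. This left 1752, 3625, 3565 and 2001 cells. Each cell took the first of 13 classes whose marker gate it passed, and no gate used one of the 8 genes. The UMIs of a class were added up within a library and divided by the class total, as CPM. No test can be made between single libraries. Intervals are exact at 95%, for counting error only, and a count of 0 allows 3 counts. Genes were tested across all class sums of a class with at least 20 cells per library by edgeR 4.0.16 (TMM, filterByExpr, ~ day + genotype), and in DESeq2 1.42.0 as an alternative, and the fit was tested on simulated data. The spread between mice is not in these p-values, since the libraries are pools. Named list genes are those past an adjusted p of 0.05, at most 5 a list, and the 10 genes nearest to the set by r. The members, lists, gates and tests were chosen with earlier results of these data known. Alternatives tried cover doublets, mitochondrial share, gates, clusters, thinning, scaling and filters. The values without the top cell, of cDC2 outside the mature DC cluster and of monocytes with few cDC2 markers were added after the data were seen. Preparation runs are not given in the sources used here.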

Additional observations from a re-analysis of the deposited data

Results flagged for a closer look

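Differences between days or genotypes that ran in opposite directions, with both counting intervals excluding 1, are listed here. None of them was tested. In cDC1 the Ccl17 ratio of knockout over wild-type was 4.26 (2.78 to 6.71) at day 9 and 0.118 (0.0233 to 0.368) at day 12. Of knockout cells, 1 held 85 of the 92 knockout UMIs of day 9, and the knockout value of day 12 rests on 3 UMIs; without the top cell of each library the Ccl17 levels were 6.79, 9.14, 13.2 and 1.78 CPM. In cDC2 the same ratio turned from 0.748 (0.589 to 0.954) to 4.98 (3.62 to 6.95) for Ccl22, from 0.155 (0.104 to 0.225) to 8.80 (6.03 to 13.2) for Fscn1 and from 0.227 (0.117 to 0.425) to 2.85 (1.74 to 4.74) for Cacnb3.

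The ratio of day 12 over day 9 also ran in opposite directions by genotype. For Ccl17 in mature DC it was 17.1 (9.93 to 32.3) in wild-type hosts, while knockout hosts had 0.804 (0.747 to 0.865). In knockout hosts that direction rests on 1 cell of day 9 with 805 of 1064 UMIs: without the top cell of each library the level went from 499.8 to 1137 CPM, a ratio of 2.28 (1.99 to 2.60), and the genotypes no longer ran in opposite directions. For Ccl22 in cDC1 it was 0.217 (0.0696 to 0.584) in wild-type hosts, while knockout hosts had 2.42 (1.08 to 6.15), from 6 to 28 UMIs per library. In cDC2 it was 0.114 (0.0748 to 0.169) and 6.47 (4.52 to 9.46) for Fscn1, and 0.336 (0.196 to 0.574) and 4.21 (2.34 to 7.99) for Cacnb3. In cDC2 the values of Fscn1 and Cacnb3 rest mostly, except Cacnb3 in the knockout library of day 9, on the 5, 3, 6 and 10 cells that fell into the mature DC cluster, which held 113, 32, 29 and 159 of the Fscn1 UMIs and 33 of 33, 7 of 16, 19 of 28 and 40 of 45 of the Cacnb3 UMIs. The Ccl22 ratio of day 9 rests on 1 wild-type cell with 106 of 114 UMIs. Outside that cluster it was 39.9 (10.9 to 332), without the top cell of each library 6.71 (3.29 to 15.9), and by clusters 33.0 (11.2 to 161), so the opposite direction did not remain.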

How the results depend on the processing

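No paired analysis was possible because each group is 1 library, and the day term already is the block; with genotype as the only term (no day block) 0 of the genes were called in mature DC. Calls in mature DC for genotype were 3 (Ccl17, Ccl22 and Apol7c) with no filter on low counts and 2 (Ccl17 and Apol7c) under the stricter gate. Under that gate the prior degrees of freedom were infinite. These settings called 32 and 31 genes in all, beside 2 in the main fit. For day the calls in mature DC were 2 with no filter, 1 (Ccl22) at 5% mitochondrial UMIs, 2 under the stricter gate and 1 (Ccl22) with CD3 exclusion at 1 UMI. In the same order 88, 26, 76 and 38 genes were called in all, beside 0 in the main fit. In cDC2 genotype called 2 with no filter and 1 each without doublet removal (Ccl17), by clusters (Ccl22) and with CD3 exclusion at 1 UMI (Ccl17). There 143, 100, 46 and 89 genes were called in all, beside 31 in the main fit. Day called 2, 1 and 2 in cDC2 with no filter, no doublet removal and CD3 exclusion at 1 UMI. For day 230, 185 and 193 genes were called in all, beside 81 in the main fit. In monocytes genotype called 1 with no filter, and day called 0 without the genotype block. There 270 and 28 genes were called in all, beside 74 and 584 in the main fit. Over all the settings tried, 2 to 32 genes were called in all for genotype and 0 to 88 for day in mature DC. The ranges were 3 to 143 and 3 to 230 in cDC2, and 3 to 270 and 28 to 881 in monocytes.

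Log2 fold changes that turned sign for day were Cacnb3 in mature DC (0.013 with no filter, 0.070 by clusters), Fscn1 in cDC2 (0.021 without the genotype block), Cacnb3 in cDC2 (-0.26 with CD3 exclusion at 1 UMI), Relb in cDC2 (0.17 by clusters), Il4i1 in cDC2 (-0.43 by clusters), Il4i1 in monocytes (0.27 by DESeq2, 1.42 by clusters, 0.061 in monocytes with fewer than 2 cDC2 markers) and Ccl22 in monocytes (1.40 by clusters). For genotype Cacnb3 in cDC2 turned, to 0.020 under the stricter gate and 0.24 with CD3 exclusion at 1 UMI. Leaving out libraries, so that 1 day or 1 genotype remains, gave in mature DC -0.17 to 0.054 for Cacnb3 by genotype, -0.32 to 4.10 for Ccl17 by day and -0.90 to 0.17 for Apol7c by day. In cDC2 it gave by genotype -0.42 to 2.32 for Ccl22, -2.69 to 3.14 for Fscn1, -0.054 to 0.82 for Relb and -2.14 to 1.51 for Cacnb3. By day it gave -2.44 to 0.29, -3.14 to 2.69, -0.59 to 0.29 and -1.57 to 2.08 for the same genes.

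The share of mature DC with at least 3 of 7 genes was 97.2% (wild-type) and 98.7% (knockout) at day 12 unthinned and 89.1% in the latter thinned to 2000 UMIs. The share with at least 5 moved further, from 53.2% to 31.4% in the latter at 2000 UMIs and from 26.7% to 70.0% in wild-type at day 9 unthinned. Ccl17 was higher in cDC1-type cells in 0 libraries when sums had to differ by 2 UMIs. Of 480 levels recomputed, 384 stayed within counting error and 96 moved. These include genes with no UMI in a class, such as Ccr4, whose levels could hardly move. All 64 stayed with the set's genes left out of the total, a small change. Without the top cell 26 moved and 38 stayed, and by clusters 25 and 39. In cDC2 outside the mature DC cluster 17 moved and 15 stayed. Under the stricter gate 11 moved and 53 stayed, and with CD3 exclusion 10 and 54. Without doublet removal 6 moved and 58 stayed, and at 5% mitochondrial UMIs 1 and 63. All 30 counts of genes at least 4-fold higher stayed within 1.5-fold of the main count, so smaller shifts are not excluded. Classes by cluster left too few pDC to be fitted. The cause of these changes was not tested.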
